A study of Homo sapiens with 4 samples.

Results

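The 56 genes described here encode the kinetochore, the spindle assembly checkpoint, spindle assembly factors and condensin. They were taken from a list of gene names drawn up with earlier results of these data known, and each was read by the brightest probe set annotated to that gene alone (highest mean over the arrays). Such a probe set existed for 55 of the 56 members, among 19775 genes measured in all. CENPP had only a probe set annotated to several genes and was not analysed here.

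RNA came from AGS, a cell line derived from a human gastric cancer, on 4 expression arrays. The 2 control arrays hold cells labelled PRMT6 wild-type, and the 2 knockout arrays hold PRMT6-knockout cells. PRMT6 is an enzyme that adds methyl groups to arginine in histones and other proteins. A lentiviral CRISPR/Cas9 vector carried 1 guide against PRMT6, infected cells were treated with puromycin, and knockout clones came from limiting dilution. The guide sequence given in the labels is shown because it defines the knockout group:

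PRMT6 guide: gacggtactggacgtgggcg

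The labels do not say which clone lies behind each knockout array, whether both arrays share a clone, or whether control cells carried the vector. Nothing states that the arrays of a group came from separate cultures, so p-values measure only the spread between these arrays, which may be technical. Values are log2 intensities. Each difference is the knockout mean less the control mean of these log2 values; its standard error (SE) is from limma, which shares variance estimates across genes, and a member is said to have risen or fallen when its p adjusted over all genes was below 0.05. PRMT6 itself read 8.03 and 8.11 on the control arrays and 7.79 and 7.63 on the knockout arrays, a difference of -0.36 (SE 0.09, adjusted p = 0.043). Its 1 probe set does not test the edit itself, and with p-values adjusted over all probe sets it was not called (adjusted p = 0.062).

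At mitosis each pair of sister chromatids must attach to opposite poles of the spindle. The centromere is marked by the histone variant CENP-A. On it sits an inner kinetochore, a set of proteins bound to centromeric chromatin, and an outer kinetochore, which grips microtubules. Kinetochores that are not attached recruit checkpoint proteins, which hold back anaphase, and condensin compacts the chromosomes beforehand. Transcripts of many of these genes accumulate in dividing cells as they approach mitosis, and their promoters often carry the cell cycle homology region, a short element bound by the DREAM and MuvB complexes.

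In the PRMT6-knockout cells 43 of 55 measured members rose and 1 fell, MIS12, while 11 did not pass the test. Over all genes 12.4% rose and 11.5% fell. Among the brighter genes alone 30.3% rose (2998 of 9888), and of the 54 members in that set 47 rose. Both knockout arrays lay above both control arrays for 50 members, against 29.1% of all genes. The median difference of members was 0.62, against -0.01 over all genes, and 53 of the 55 differences were positive. Rises of 2-fold or more, found in 1.3% of all genes, were reached by 8 members: CENPE, CDCA8, SPAG5, BIRC5, BUB1, DLGAP5, ZWINT and CENPW. Because each array reads a whole culture, more cells near mitosis and more RNA per cell cannot be told apart.

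**Figure D1:**
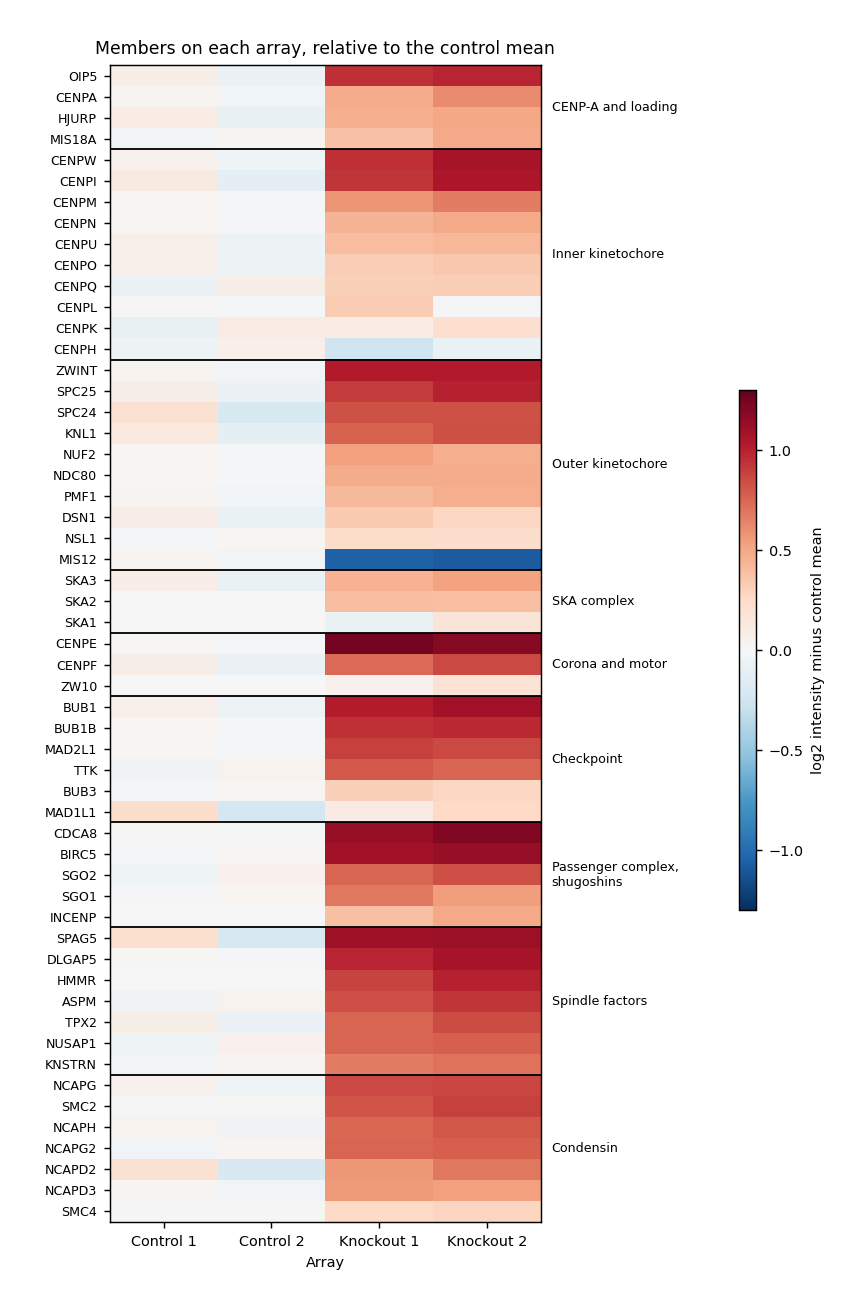
Each row is a member and each column an array, coloured by log2 intensity minus the mean of that member's control arrays, with members grouped by complex and sorted by difference. The knockout columns are red for most members, the MIS12 row is blue on both knockout arrays, and CENPE has the strongest red, at 9.94 and 9.88 against 8.71 and 8.68.

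The number of rises depended on having both knockout arrays. It was 35 without control 1, 29 without control 2, 8 without knockout 1 and 4 without knockout 2, where the lone knockout array was assumed to vary like the controls; over all genes the share that rose was then 0.991% without knockout 1 and 0.779% without knockout 2. Over all genes the share that rose was also below its 12.4% with all arrays when control 1 or control 2 was left out. The sizes of the members' differences moved less, since their median stayed between 0.63 and 0.69 in these fits. CENPE, CDCA8, BIRC5 and DLGAP5 rose and MIS12 fell with any 1 array left out. The other 39 rises were lost in at least 1 of these fits, although each of the 43 differences stayed at 0.27 or above. Arrays were also set to equal means of 9 reference genes, of which 4 had themselves risen on the deposited scale (HPRT1, PPIA, GAPDH and SDHA, by 0.33 to 0.44). The median of all genes moved from -0.01 to -0.23; 33 members then rose and 2 fell, and over all genes 1338 rose and 6245 fell, against 2459 and 2281 on the deposited scale.

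Several promoters are shown because the members moved together. They belong to the most changed member of each of 6 groups that had a promoter window in the RefSeq table for GRCh38.p14. Each runs 5′ to 3′ from 150 bases before the annotated start to 30 bases after it, on the gene's strand. Capitals mark the cell cycle homology region (TTTGAA or TTCGAA), the CCAAT box (CCAAT), or a core of the E2F type (TTCCCGC or TTGGCGC or TTCGCGC), each searched on both strands, so that a reverse complement is in capitals too.
CENPE (chr4:103198314-103198493, minus strand): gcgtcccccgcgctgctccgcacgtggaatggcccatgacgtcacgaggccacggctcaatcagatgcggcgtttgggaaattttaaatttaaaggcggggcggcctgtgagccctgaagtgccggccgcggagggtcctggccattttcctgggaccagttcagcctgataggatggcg
CDCA8 (chr1:37692366-37692545, plus strand): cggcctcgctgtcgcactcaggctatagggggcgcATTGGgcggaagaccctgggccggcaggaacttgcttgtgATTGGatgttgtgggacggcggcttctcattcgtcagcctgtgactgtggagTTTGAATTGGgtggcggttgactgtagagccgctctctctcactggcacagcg
SPAG5 (chr17:28598996-28599175, minus strand): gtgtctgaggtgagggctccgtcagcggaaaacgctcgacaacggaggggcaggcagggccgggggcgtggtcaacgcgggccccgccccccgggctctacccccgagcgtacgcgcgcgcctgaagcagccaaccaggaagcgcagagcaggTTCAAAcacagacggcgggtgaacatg
MIS12 (chr17:5486224-5486403, plus strand): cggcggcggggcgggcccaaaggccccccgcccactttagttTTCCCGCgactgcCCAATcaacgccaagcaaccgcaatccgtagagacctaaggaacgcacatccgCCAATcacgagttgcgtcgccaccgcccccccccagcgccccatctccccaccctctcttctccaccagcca
BUB1 (chr2:110678034-110678213, minus strand): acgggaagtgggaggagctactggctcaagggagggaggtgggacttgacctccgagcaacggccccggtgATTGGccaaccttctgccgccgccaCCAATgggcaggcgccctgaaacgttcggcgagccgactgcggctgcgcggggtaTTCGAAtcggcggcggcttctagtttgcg
CENPW (chr6:126339965-126340144, plus strand): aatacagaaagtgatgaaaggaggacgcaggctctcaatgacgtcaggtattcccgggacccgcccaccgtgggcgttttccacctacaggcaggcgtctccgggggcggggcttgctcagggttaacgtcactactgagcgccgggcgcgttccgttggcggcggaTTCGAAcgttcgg

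The CDCA8, SPAG5, BUB1 and CENPW stretches each hold 1 match to the cell cycle homology region, close to the annotated start. In CDCA8 that match runs into a reversed CCAAT box and shares 1 base with it. MIS12, the member that fell, holds 2 CCAAT boxes and 1 core of the E2F type and no match to the cell cycle homology region. CENPE, the member with the largest rise, holds none of the 3 elements in its window.

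Promoter windows of 300 bases, 250 before and 50 after the start, were found for 46 of the 55 members and for 27305 genes in all. The cell cycle homology region matched in 30 of the 46 (65.2%), against 16.6% of all genes with a window. The CCAAT box matched in 28 (60.9%) against 35.7%, and the E2F core in 16 (34.8%) against 11.2%. Not all of those genes were measured on the arrays. Over the measured genes with a window the shares were 13.3% for the cell cycle homology region, 36.1% for the CCAAT box and 14.7% for the E2F core. In 2 members a CCAAT box and an E2F core overlapped. Of the matches to the cell cycle homology region, 27 of 35 began no further than 50 bases before the start, or after it (77.1%), against 27.0% of 5346 matches over all genes. Among members that rose the region matched in 27 of 37 windows (73.0%), and among members that did not pass the test in 3 of 8 (37.5%); over all measured genes that rose it matched in 16.6% of windows, and over those not called in 13.2%. The CCAAT box matched in 24 of 37 (64.9%) and 3 of 8 (37.5%) of these members, and in 41.0% and 35.3% of these measured genes. Among members the E2F core went the other way, with 11 of 37 (29.7%) and 4 of 8 (50%). Over all measured genes it did not, with 21.7% of windows in genes that rose and 13.2% in those not called. These shares were not tested. All 3 elements were present in CENPA, HJURP, OIP5, CENPN, ZWINT, SPC25, ZW10, MAD2L1 and NUSAP1, and none in CENPI, DSN1, NSL1, CENPE, MAD1L1, KNSTRN and NCAPD3. A match is a description of these letters and does not show binding.

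All 4 genes of the centromeric histone and its loading rose, with a median difference of 0.52. OIP5, a subunit of the MIS18 complex that primes centromeres for new CENP-A, read 8.42 and 8.25 on the control arrays and 9.28 and 9.33 on the knockout arrays. Both knockout values lay clear of both controls, a difference of 0.97 (SE 0.09, 1.96-fold, adjusted p = 0.0025). CENPA, the centromeric histone itself, read 8.07 and 8.01 in control and 8.52 and 8.66 in knockout cells, a difference of 0.55 (SE 0.09, adjusted p = 0.010). Its 1 probe set is of a kind that can bind other transcripts as well, as are those that read CENPH, CENPL and SKA1. HJURP, the chaperone that deposits CENP-A, read 8.95 and 8.76 in control and 9.32 and 9.35 in knockout cells (0.48, SE 0.10, adjusted p = 0.021). MIS18A, a further MIS18 subunit, read 8.76 and 8.83 against 9.18 and 9.28 (0.44, SE 0.08, adjusted p = 0.018). Both knockout arrays lay above both control arrays in 29.1% of all genes and in all 4 of these genes. None was called without knockout 1 or without knockout 2, and 2 (CENPA and OIP5) were called under reference gene scaling.

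In the inner kinetochore 6 of 10 genes rose and 4 did not pass the test, with a median difference of 0.38. CENPW, which pairs with CENP-T in a histone-like fold, read 9.26 and 9.15 in control and 10.15 and 10.27 in knockout cells. This was a rise of 1.01 (SE 0.09, 2.01-fold, adjusted p = 0.0023). CENPI read 6.48 and 6.24 in control and 7.29 and 7.41 in knockout cells, a rise of 0.99 (SE 0.11, adjusted p = 0.0040). Its protein belongs to the same subcomplex as those of CENPH, CENPK and CENPM. CENPM read 7.34 and 7.28 against 7.88 and 7.97 (0.62, SE 0.08, adjusted p = 0.0062). CENPN, whose protein reads the CENP-A nucleosome directly, read 8.83 and 8.77 against 9.24 and 9.29 (0.47, SE 0.08, adjusted p = 0.012). CENPU (0.42) and CENPO (0.34), both of the CENP-O subcomplex, also rose. The dimmer probe sets of CENPU gave 0.74 and 0.73, and that of CENPO gave 0.33.

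The other inner kinetochore genes gave smaller values. CENPH, a partner of CENPI, read 8.24 and 8.37 in control and 8.05 and 8.22 in knockout cells, a difference of -0.17 (SE 0.10, 95% confidence interval -0.43 to 0.08, adjusted p = 0.30). Its knockout arrays lay just below its control arrays, and it fell under reference gene scaling (-0.40, adjusted p = 0.033). CENPK, of that subcomplex too, read 8.57 and 8.76 against 8.76 and 8.88 (0.16, SE 0.10, interval -0.10 to 0.41, adjusted p = 0.35). CENPL, which pairs with CENPN, read 7.99 and 7.96 against 8.31 and 7.95, so that only 1 knockout array stood above the controls (0.16, SE 0.13, adjusted p = 0.47). The dimmer probe set of CENPL rose by 0.56 (adjusted p = 0.013 over probe sets). CENPQ, of the CENP-O subcomplex, read 6.69 and 6.85 against 7.08 and 7.10, which do not overlap (0.31, SE 0.09, adjusted p = 0.061). Of this group 1 gene was called without knockout 1, 0 without knockout 2, and 3 without control 2. Under reference gene scaling 3 rose and 1, CENPH, fell, and CENPN, CENPO and CENPU lost their calls.

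**Figure D2:**
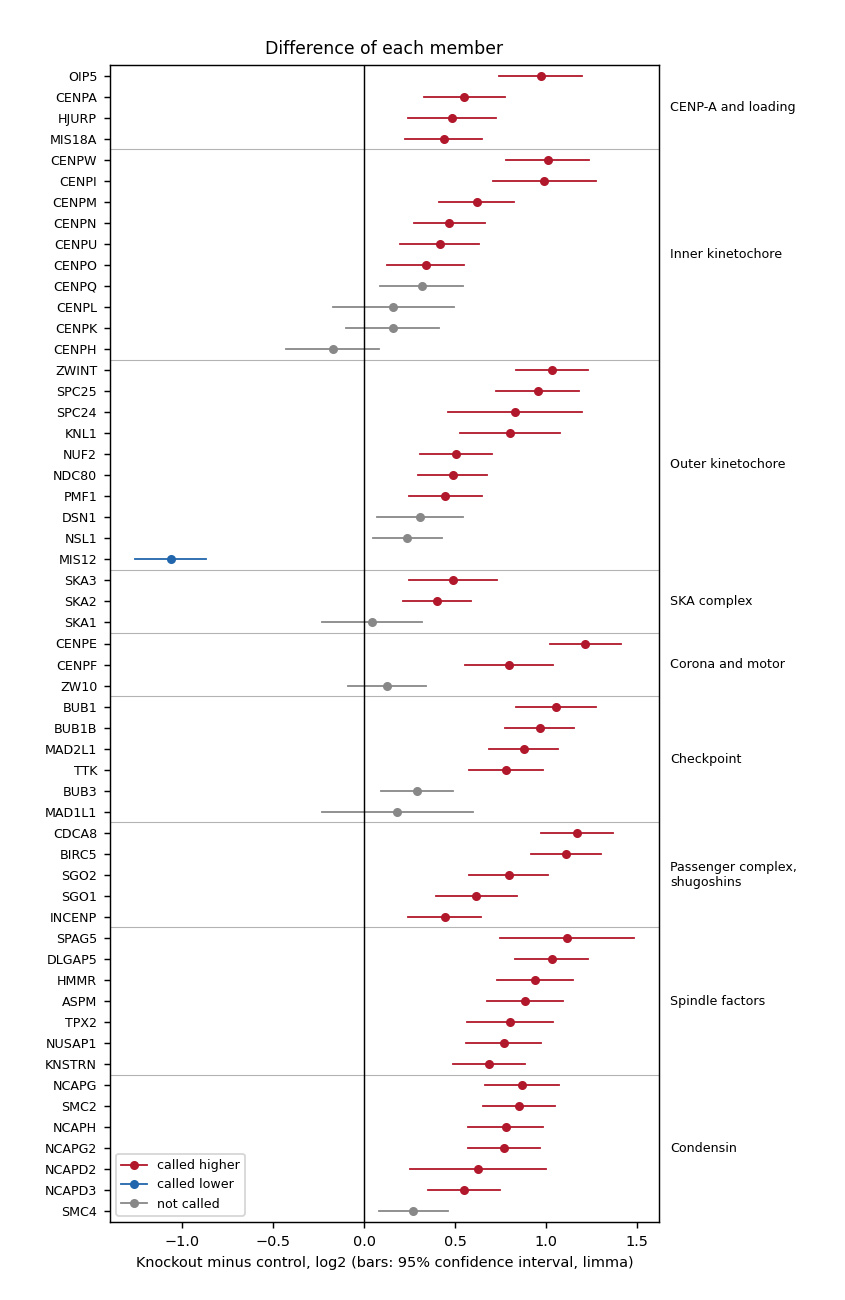
Points give knockout minus control for each member on the log2 scale, bars the 95% confidence interval from limma, and colours the call. All 7 spindle factors and all 5 genes of the passenger complex and shugoshins lie to the right of 0 with their intervals, while the inner and outer kinetochore hold members on either side, MIS12 lying furthest left at -1.06.

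In the outer kinetochore 7 of 10 genes rose and 1 fell (median 0.49). ZWINT, which links KNL1 to the checkpoint machinery, read 10.26 and 10.18 in control and 11.25 and 11.25 in knockout cells, a rise of 1.03 (SE 0.08, 2.04-fold, adjusted p = 0.0016). KNL1, the scaffold on which BUB proteins assemble, read 8.22 and 7.97 against 8.86 and 8.93 (0.80, SE 0.11, adjusted p = 0.0066). All 4 genes of the NDC80 complex, the main microtubule coupler, rose. SPC25 read 7.35 and 7.20 against 8.19 and 8.27 (0.95, SE 0.09, adjusted p = 0.0026). SPC24, its dimer partner, read 6.94 and 6.54 against 7.57 and 7.57 (0.83, SE 0.14, adjusted p = 0.014), with a wide gap between its control arrays. NDC80 and NUF2, which form the microtubule-binding end, gave 0.49 and 0.50. The rises of SPC25 and SPC24 were larger as estimates than those of NDC80 and NUF2, a difference that was not tested.

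The MIS12 complex, which joins the inner kinetochore to NDC80 and KNL1, had members called in both directions. MIS12 read 10.18 and 10.12 in control and 9.10 and 9.07 in knockout cells. The groups were clearly apart, and MIS12 fell by 1.06 (SE 0.08, 95% confidence interval -1.26 to -0.87, adjusted p = 0.0014). It was read by 1 probe set, shared between transcripts and not gene-specific by its name, and the call held in all 11 alternatives that read it, with any 1 array left out among them. Its partner PMF1 read 8.16 and 8.08 against 8.54 and 8.59, a rise of 0.44 (SE 0.08, adjusted p = 0.015). The PMF1 call was lost under reference gene scaling and with any 1 array left out. DSN1 read 8.20 and 8.03 against 8.46 and 8.38 (0.31, SE 0.09, adjusted p = 0.074) and NSL1 read 9.59 and 9.64 against 9.86 and 9.85 (0.24, SE 0.08, adjusted p = 0.084). For DSN1 and NSL1 the knockout arrays lay above the control arrays without passing the test. Of the 10 outer kinetochore genes 1 rose without knockout 1, 0 without knockout 2 and 4 without control 2.

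Because MIS12 went against its complex, the genes whose start lies head to head with a member, on the opposite strand within 1000 bases, were listed; this was chosen after the values were seen. There were 15 such neighbours outside the member list with a measurement. DERL2, which encodes a component of endoplasmic-reticulum-associated degradation, starts 196 bases from MIS12. It read 10.34 and 10.35 in control and 9.44 and 9.41 in knockout cells and fell by 0.92 (SE 0.08, adjusted p = 0.0019). MIS12 was the 1 member that fell, so no other pair could have had both genes fall.

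The other neighbours did not all follow their member. Of the 10 neighbours of members that rose, 6 rose, 1 fell and 3 did not pass the test. Over all genes 12.4% rose and 11.5% fell, and among the brighter genes alone 30.3% rose. PTRHD1, 34 bases from CENPO, rose by 0.61, and CMC2, 329 bases from CENPN, rose by 0.57. RGS5, a regulator of G protein signalling 219 bases from NUF2, rose by 2.18, from 6.24 and 6.19 to 8.63 and 8.16. METTL4, 52 bases from NDC80, fell by 0.64 (adjusted p = 0.0052) while NDC80 rose. TATDN3, 117 bases from NSL1, fell by 1.00 (adjusted p = 0.0058). AIRIM, 274 bases from CDCA8, gave -0.30 (adjusted p = 0.14). OIP5 and NUSAP1 are both members and start 290 bases apart, and both rose.

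**Figure D3:**
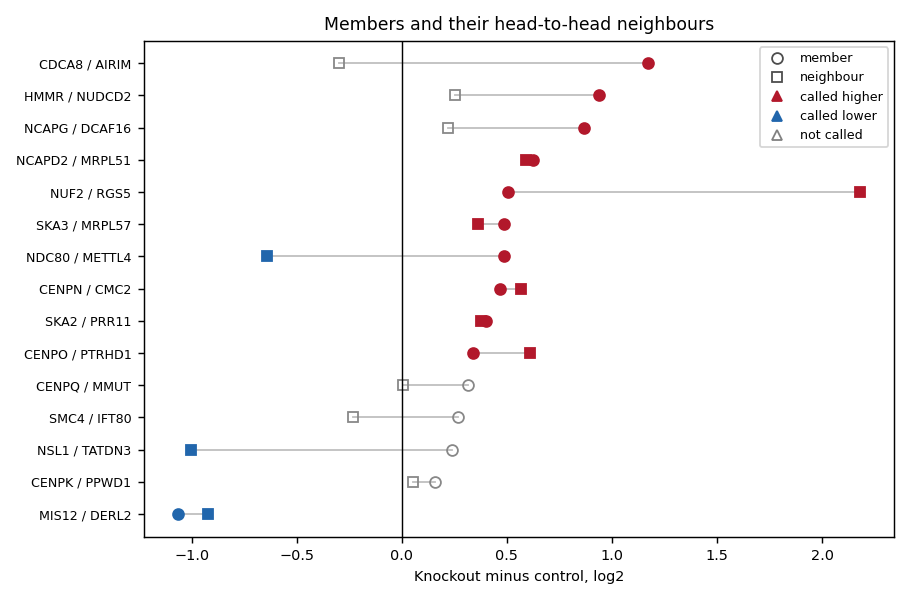
Each line joins a member (circle) and its head-to-head neighbour (square) by their differences on the log2 scale, coloured by call. MIS12 and DERL2 lie together on the left at -1.06 and -0.92, whereas NDC80 and METTL4 lie on opposite sides of 0.

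Of the 3 SKA genes, whose complex helps kinetochores follow the ends of microtubules, 2 rose. SKA3 read 7.59 and 7.41 in control and 7.95 and 8.02 in knockout cells (0.49, SE 0.09, adjusted p = 0.019). SKA2 read 9.54 and 9.53 against 9.94 and 9.93 (0.40, SE 0.07, adjusted p = 0.017), and its dimmer probe set gave 0.78. SKA1 read 6.20 and 6.19 against 6.11 and 6.36, with overlapping groups (0.04, SE 0.11, interval -0.23 to 0.31). Neither rise was called without control 2, without knockout 1, without knockout 2 or under reference gene scaling.

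Of the corona and motor genes CENPE and CENPF rose. CENPE, a kinesin that carries chromosomes towards the spindle equator, read 8.71 and 8.68 in control and 9.94 and 9.88 in knockout cells. It had the largest difference of all members, 1.22 (SE 0.08, 95% confidence interval 1.02 to 1.41, 2.32-fold, adjusted p = 0.00099). CENPF, which recruits dynein regulators, read 9.44 and 9.29 against 10.10 and 10.22 (0.79, SE 0.10, adjusted p = 0.0049), a call lost without either knockout array. ZW10, which also acts in vesicle transport outside mitosis, read 8.45 and 8.46 against 8.51 and 8.65 (0.12, SE 0.09, interval -0.09 to 0.34, adjusted p = 0.38).

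In the checkpoint 4 of 6 genes rose, with a median of 0.83. BUB1, a kinase that marks the centromere for shugoshin, read 8.61 and 8.48 in control and 9.56 and 9.63 in knockout cells (1.06, SE 0.09, 2.08-fold, adjusted p = 0.0019). BUB1B, which encodes the BUBR1 subunit of the mitotic checkpoint complex, read 9.19 and 9.15 against 10.12 and 10.15 (0.96, SE 0.08, adjusted p = 0.0017). MAD2L1, which encodes the MAD2 protein that sequesters CDC20, read 9.89 and 9.86 against 10.76 and 10.73 (0.88, SE 0.08, adjusted p = 0.0022). TTK, the kinase that starts checkpoint signalling, read 8.81 and 8.90 against 9.65 and 9.61 (0.78, SE 0.08, adjusted p = 0.0031). Both knockout arrays lay above both control arrays in 29.1% of all genes and in each of these 4 genes. They were all called without either control array, whereas BUB1B alone was called without knockout 1 and 0 of the 4 without knockout 2.

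The checkpoint genes that did not pass the test were BUB3 and MAD1L1. BUB3, which also works with BUB1 and BUBR1, read 11.12 and 11.18 in control and 11.46 and 11.42 in knockout cells, so the groups did not overlap (0.29, SE 0.08, adjusted p = 0.050, just above the threshold). Its 6 probe sets ranged from -0.18 to 0.72, and the 1 that rose was the dimmest, with a mean of 3.09. MAD1L1, which encodes the kinetochore anchor of MAD2, read 7.39 and 6.94 against 7.28 and 7.42. Its control arrays lay further apart than the group means (0.18, SE 0.16, interval -0.23 to 0.60), so the difference was within the spread between replicates.

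All 5 genes of the chromosomal passenger complex and the shugoshins rose, with a median of 0.79. CDCA8, which encodes borealin, read 7.98 and 7.95 in control and 9.10 and 9.17 in knockout cells (1.17, SE 0.08, 2.25-fold, adjusted p = 0.0011). BIRC5, which encodes survivin, read 9.07 and 9.10 against 10.17 and 10.22 (1.11, SE 0.08, 2.16-fold, adjusted p = 0.0012), and all 4 of its probe sets rose. INCENP, the scaffold that holds the kinase Aurora B in the same complex, read 5.90 and 5.89 against 6.29 and 6.38, a smaller rise (0.44, SE 0.08, adjusted p = 0.015). The INCENP call was lost under reference gene scaling and with any 1 array left out. SGO2 and SGO1, protectors of centromeric cohesion, read 7.73 and 7.84 against 8.54 and 8.62 (0.79, SE 0.09, adjusted p = 0.0036), and 5.57 and 5.62 against 6.28 and 6.14 (0.62, SE 0.09, adjusted p = 0.0075). The SGO1 call was also lost with any 1 array left out. CDCA8 and BIRC5 were the genes of this group called without knockout 1 and without knockout 2.

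All 7 spindle assembly factors rose, by 0.68 to 1.11. SPAG5, which encodes astrin, read 8.03 and 7.62 in control and 8.93 and 8.94 in knockout cells (1.11, SE 0.15, adjusted p = 0.0061), with the 2 control arrays well apart. KNSTRN, its binding partner at kinetochores, gave 0.68 (SE 0.08), the smallest rise of the group. DLGAP5, a microtubule stabiliser near chromosomes, read 9.54 and 9.51 against 10.51 and 10.60 (1.03, SE 0.08, 2.04-fold, adjusted p = 0.0016). HMMR read 9.37 and 9.37 against 10.24 and 10.37 (0.94, SE 0.08, adjusted p = 0.0023), and ASPM, a spindle pole protein, read 9.86 and 9.95 against 10.75 and 10.83 (0.88, SE 0.08, adjusted p = 0.0025). TPX2, the activator of Aurora A, gave 0.80 and NUSAP1 0.77. All 7 rises were called without either control array and under reference gene scaling, 2 were called without knockout 1 and 1, DLGAP5, without knockout 2.

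Of the condensin genes among the members 6 of 7 rose, with a median of 0.77. NCAPG, of condensin I, read 9.10 and 8.99 in control and 9.91 and 9.92 in knockout cells (0.87, SE 0.08, adjusted p = 0.0025). NCAPH, the bridging subunit of condensin I, read 8.14 and 8.04 against 8.84 and 8.89 (0.78, SE 0.08, adjusted p = 0.0034). NCAPG2, the condensin II counterpart of NCAPG, read 8.56 and 8.64 against 9.36 and 9.38 (0.77, SE 0.08, adjusted p = 0.0031). The 3 condensin I subunits had a median of 0.78 and the 2 condensin II subunits among the members one of 0.66, with no test between them. NCAPH2, a condensin II subunit outside the member list, gave 0.27 (SE 0.12, adjusted p = 0.20) and did not pass the test. NCAPD3 of condensin II gave 0.55 (adjusted p = 0.0075), and NCAPD2 of condensin I gave 0.62 (SE 0.15, adjusted p = 0.035), a call lost under reference gene scaling and without control 2.

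The ATPase subunits shared by both condensins read differently. SMC2 read 8.11 and 8.13 in control and 8.94 and 9.01 in knockout cells (0.85, SE 0.08, adjusted p = 0.0024). SMC4, its partner in the same dimer, read 10.63 and 10.67 against 10.91 and 10.92. Its groups did not overlap, but the difference of 0.27 (SE 0.07, adjusted p = 0.057) did not pass the test. The other probe sets of SMC4 were dimmer and rose by 0.56 and 0.72, and the mean of its probe sets rose by 0.52 (adjusted p = 0.0053). None of the 7 condensin genes was called without knockout 1 or without knockout 2.

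Several probe sets read 23 of the 55 members, and for 0 of these were probe sets called in opposite directions. The probe sets of NSL1 ranged from -0.06 to 0.67, and 1 of 4 rose. Those of CENPI ranged from 0.02 to 0.99, and the brighter pair rose. In BUB1 the probe sets at 8.61 and 7.39 on control 1 gave 1.06 and 1.08, while the dimmest, with a mean of 2.93, gave 0.25 and was the 1 of 5 that did not pass the test. CENPO was called in the fit over genes (SE 0.084) but not in that over probe sets (SE 0.091, adjusted p = 0.062), which differ in both the variance estimate and the number of tests.

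**Figure D4:**
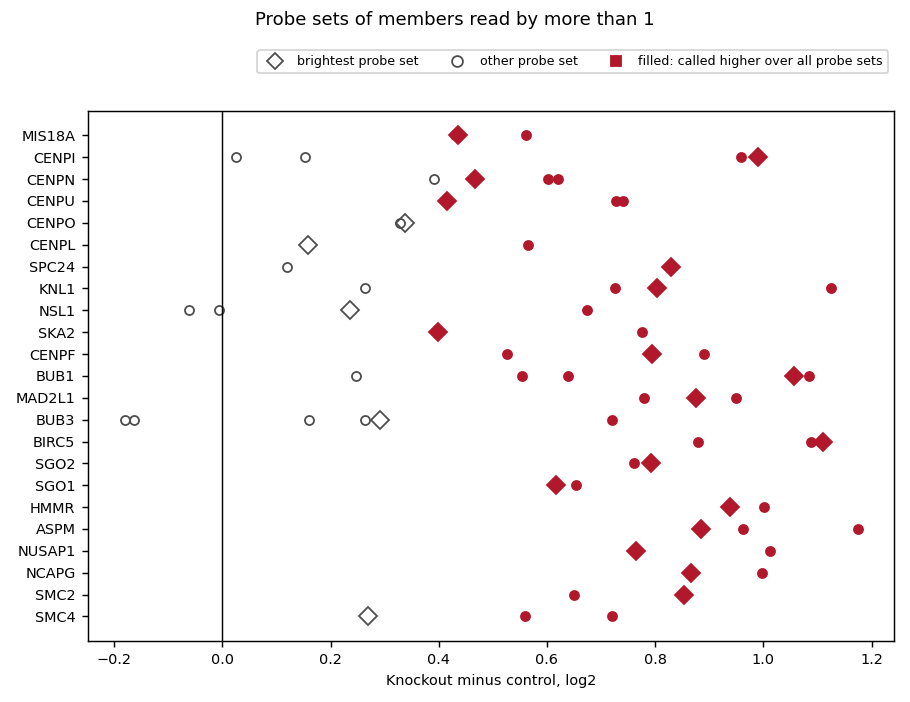
Differences on the log2 scale for each probe set of the 23 members read by more than 1; diamonds are the brightest probe sets, filled symbols those called higher when p-values were adjusted over all probe sets. SMC4, CENPL, NSL1 and BUB3 have an open diamond and at least 1 filled dimmer probe set, and BUB3 and NSL1 also have probe sets to the left of 0.

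Genes of the same machinery outside the member list showed how far the pattern reached. Of 14 other centromere and kinetochore genes 9 rose and 0 fell (median 0.51), while 12.4% of all genes rose and 11.5% fell. Among the brighter genes alone 30.3% rose. The 9 included the kinesin KIF18A (1.12, SE 0.08), the dynein adaptor SPDL1 (0.91, SE 0.10) and the CENP-A reader CENPC (0.83, SE 0.08). AURKB, the kinase of the passenger complex, rose by 0.83. The 5 that did not pass the test were CENPT (0.42), NCAPH2 of condensin II (0.27), KNTC1 (0.23), ITGB3BP (0.17) and MAD2L1BP (0.17), all with positive differences. Under reference gene scaling 8 of the 14 rose, against 6.77% of all genes. Fewer of the 14 rose without control 2, and fewest without knockout 1 or without knockout 2. The share of all genes that rose was lower in those fits too.

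The lists further from the kinetochore had lower shares of rises (20% to 40%). Over all genes 12.4% rose and 11.5% fell. Among the brighter genes alone 30.3% rose, which lies within the range of these lists. Of 15 genes of cohesin and its regulators, which hold sister chromatids together, 5 rose and 3 fell (median 0.11). The rises included the acetyltransferase ESCO2 (0.96, SE 0.09) and securin, PTTG1 (0.85, SE 0.08), whereas the related ESCO1 fell by 0.77 (SE 0.08) and the release factor WAPL fell by 0.34. Of 15 genes of the anaphase-promoting complex and its activators 6 rose and 2 fell (median 0.17). The activator CDC20 rose by 1.14 (SE 0.10), ANAPC15 by 0.96 (SE 0.11) and CDC26 by 0.81 (SE 0.09). Of 15 genes of augmin and the gamma-tubulin ring complex, which nucleate microtubules, 3 rose (TUBG1 by 1.02, TUBGCP5 by 0.66 and HAUS1 by 0.62) and 0 fell (median 0.30). At an unadjusted p below 0.05 in limma, 8 augmin and gamma-tubulin genes were higher and 1 was lower. At that threshold 6890 of all 19775 genes passed, in either direction. Under reference gene scaling the medians of the cohesin and anaphase-promoting complex lists turned negative (-0.11 and -0.06), against -0.23 over all genes. On that scale 3 of the 15 augmin and gamma-tubulin genes fell, against 6245 of all 19775 genes. Without knockout 1 or without knockout 2 no cohesin or anaphase-promoting complex gene was called in either direction. Shares were not tested against each other.

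**Figure D5:**
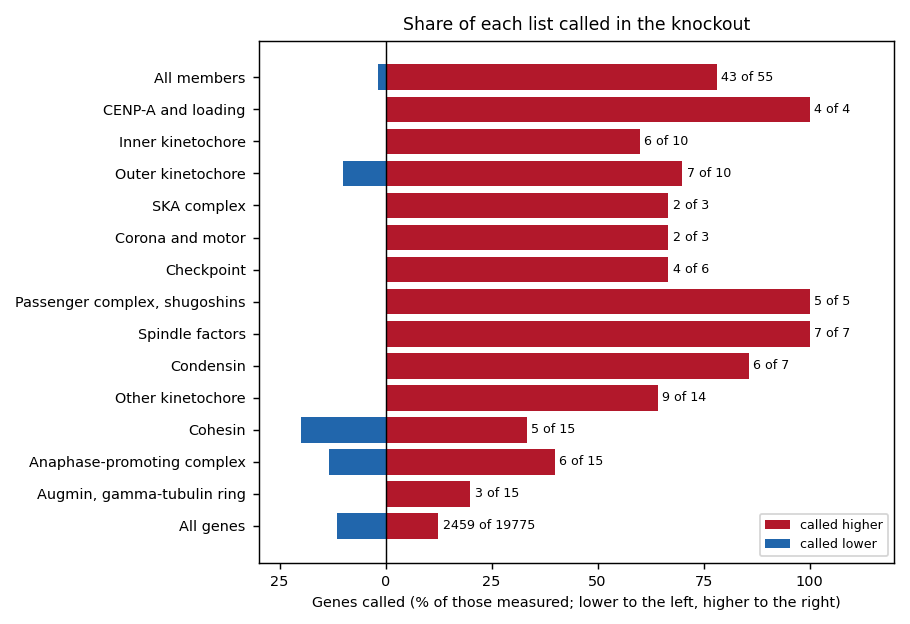
Bars give the percentage of each list's measured genes called higher (right) or lower (left), with the number called higher beside the bar. The member groups lie between 60% and 100% called higher, against 12.4% of all genes, and the cohesin and anaphase-promoting complex lists have calls on both sides.

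The label of the cells was checked on marker lists. Of 6 epithelial markers EPCAM, KRT8, KRT18 and KRT19 read 11.76 or higher on every array, CLDN4 read 9.09 to 9.57 and CDH1 7.20 to 7.29. KRT8 and KRT19 were called higher in knockout cells and CLDN4 lower (-0.46, adjusted p = 0.012), and the list's summed level was 14.55 to 14.75. PTPRC, the defining gene of immune cells, read 2.63 to 3.42, CD14 3.18 to 3.71, CD3E 5.08 to 5.61 and LYZ 11.30 to 12.88. Of the endothelial genes CDH5 read 2.63 to 2.79, KDR 2.45 to 2.74 and TEK 3.96 to 4.54. VWF read 5.11 to 5.43 and PECAM1 5.82 to 6.02, and the median level over all genes was 5.97. None of 4 immune and 5 endothelial markers was called by limma. At an unadjusted p below 0.05 in limma, 1 immune marker was higher and 3 were lower, and 0 endothelial markers passed. At that threshold 6890 of all 19775 genes passed, in either direction. The summed level of the immune list was 12.79 and 12.89 on the control arrays and 12.37 and 11.33 on the knockout arrays, carried by LYZ, and that of the endothelial list 6.89 to 7.13. Of 6 fibroblast markers 3 were higher in knockout cells (COL1A1, COL3A1 and LUM). The list's summed level moved from 8.81 and 8.89 to 10.29 and 10.21 on the log2 scale, carried by COL1A1. COL1A1 read 8.55 and 8.60 in control and 10.18 and 10.09 in knockout cells. COL3A1 moved at a low level from 2.66 and 2.90 to 3.50 and 4.09, and LUM from 2.25 and 2.52 to 3.76 and 3.74. COL1A2, DCN and PDGFRB stayed between 3.44 and 5.11. The part of these markers in the results was not tested.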

How the data were processed

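The authors deposited 1 table of log2 intensities of 54613 probe sets on 4 arrays; per the submitters' processing notes RMA and affy were used, with no version or setting given. That values are log2 follows from their range (1.64 to 14.16, array medians 5.01 to 5.02). Such processing makes differences relative to the other transcripts and compresses those of dim probe sets; the number of arrays limits the precision. Pearson's r across probe sets was 0.995 within controls, 0.996 within knockouts and 0.981 to 0.984 between groups.

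Probe sets were named from the platform annotation, with symbols updated by gene number to RefSeq (GRCh38.p14): 41091 had 1 symbol, 1801 several and 11721 none listed. The fit of knockout against control used lmFit and eBayes of limma 3.58.1 (R 4.3.3) over 19775 genes, with Benjamini-Hochberg adjustment over all of them, 2 residual and 3.27 prior degrees of freedom. The script was tested on simulated data. Detection calls were not used, so background is unknown. Members, lists and rules were chosen with earlier results of these data known. Described with all array values were, per group, up to 4 called members with the largest difference, all others not called or lower, and, by their differences alone, up to 3 called genes of other lists; further genes were chosen after their values were seen. Alternatives changed the probe set rule, dim-gene filter, variance prior, scaling, unit of testing, block and arrays used.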

Additional observations from a re-analysis of the deposited data

How the results depend on the processing

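Under the 12 alternatives the count of members that rose was 33 under reference gene scaling and 36 of 45 with gene-specific probe sets, and otherwise 41 to 48 with all arrays. With 1 array left out it ranged from 4 to 35. The count that fell was 1 in most alternatives, 0 with gene-specific probe sets, which do not read MIS12, and 2 under reference gene scaling. The median difference was 0.40 under that scaling. Differences that changed sign were all of members that did not pass the test: under reference gene scaling CENPK (-0.068), CENPL (-0.065), SKA1 (-0.18), ZW10 (-0.10) and MAD1L1 (-0.042), and with 1 array left out CENPL (-0.017 to 0.33), SKA1 (-0.089 to 0.17) and MAD1L1 (-0.042 to 0.41). The cause was not tested. Of 649 single-member values in alternatives, 515 kept direction and call, 111 lost the call, 15 gained one and 8 changed sign.

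The replicate numbers in the labels were not taken to pair the arrays: deviations of same-numbered arrays correlated at 0.05 over all genes, with 2 pairs. With the replicate block 41 members rose and 1 fell, CENPO and NCAPD2 losing their calls; over all genes 2035 rose and 1937 fell. The count of all genes that rose was 2459 with all arrays, 3103 with an intensity trend in the prior, 2998 of 9888 with brighter genes only, 1615 of 16787 with gene-specific probe sets, and 154 to 1371 with 1 array left out.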
